A study of Homo sapiens with 62 samples.

Results

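The 10 genes described here encode the elongation factors of protein synthesis and other abundant proteins whose mRNAs are of the TOP class. They are EEF1A1, EEF1B2, EEF1D, EEF1G and EEF2, TPT1, the chaperone subunits NACA and BTF3, PABPC1 and EIF3E. They were taken by gene symbol from the 55040 gene rows of each file, and each symbol matched 1 row, so 10 of 55040 rows are covered. The cells were GM12878, an established B-lymphoblastoid line, and RNA-seq libraries were made from minute amounts of RNA with the SMART-seq chemistry, which primes on poly(A) tails and amplifies full-length cDNA. Of the 62 samples of the series, 20 were used here. Each of these is 1 portion of a small pool of 10 cells that was parted into 10 portions, every portion being taken through the single-cell procedure on its own. The labels give no treatment, transgene or genetic change for any of them, and the values hold for this 1 line only.

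The titles separate the 20 libraries into a numbered set (splits 1 to 10) and an unnumbered set (library numbers 232, 233 and 246 to 253), with 10 libraries each. The titles of 9 of the 10 unnumbered libraries, all but 247, mark their record as replaced by a later one, and no numbered title does; the later records were not analysed here. The sources used here do not say whether each set came from 1 pool, so p-values below measure the spread between splits, which may be technical. Depth, worked out from the confidence bounds in the files, was 11.8 to 20.6 megafragments for numbered splits. For unnumbered ones it went up to 38.7 megafragments, but was only 7.80 in split 252 and 0.128 in split 247. FPKM, the unit of the files, counts fragments per kilobase of transcript and per megafragment mapped. Summed over all rows it came to 1.13e+06 to 1.64e+06 in numbered and 1.11e+06 to 1.29e+06 in unnumbered splits. B-cell markers were present in both sets, with a summed level of 18648 to 30807 FPKM over 11 genes in the numbered and of 30677 to 73751 FPKM in the unnumbered splits. Most of this sum was IGLC2, an immunoglobulin light chain gene, at 18121 ± 2836 and 42848 ± 11042 FPKM (SD, n = 10 each; log2 difference -1.22, adjusted p = 4.47e-08, limma). The other 3 B-cell markers called were higher in the numbered splits, namely CD74 (log2 difference 1.2), MS4A1 (1.64) and CD79A (4.69), and the median over the 10 tested was 1.26. Of 6 T-cell markers 3 reached 1 FPKM in at least 1 library, with sums of 3.27 to 239.4 and of 10.3 to 589.5 FPKM, TRAC the main one, and CD3D at 0 in all 20 libraries. Of 6 myeloid markers 2 reached 1 FPKM in at least 1 library, with sums of at most 53.8 and 1.65 FPKM (CD14 and S100A8 at 0). Fibroblast or epithelial markers did so in 3 of 6 cases, with sums of at most 40.7 and 2.61 FPKM. Erythroid markers summed to at most 0.206 FPKM (HBB at 0). The part of these markers and of depth in the differences below was not tested.

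TOP mRNAs begin with a cytidine followed by an unbroken tract of pyrimidines, the 5′ terminal oligopyrimidine motif. Through this tract their translation is switched on and off as a group with the supply of nutrients, under the control of the kinase complex mTORC1 and of the cap-binding repressor LARP1. Ribosomal protein genes form the bulk of the class, and the elongation factors, the poly(A)-binding protein and several other abundant translation proteins belong to it as well.

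RefSeq (GRCh38.p14) start windows were at hand for 7 of the 10 genes: EEF1A1, EEF1B2, EEF1G, EEF2, TPT1, NACA and BTF3. EEF1D, PABPC1 and EIF3E had no entry. The windows below show the motif that gives the class its name. Each runs from 10 bases before the annotated start to 20 bases from it, 5′ to 3′ on the strand of the gene, and capitals mark the run of C and T that begins at the start base.
EEF1A1: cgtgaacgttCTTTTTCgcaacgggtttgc
EEF1B2: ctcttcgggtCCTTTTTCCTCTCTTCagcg
EEF2: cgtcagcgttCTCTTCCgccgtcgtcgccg
TPT1: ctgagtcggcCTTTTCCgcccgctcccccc
NACA: ctcgctcggtCTTTCTgccgccatcttggt
BTF3: cttccggcctCCCTTTagctgccatcttgc
EEF1G: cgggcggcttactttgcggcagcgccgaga
The EEF1A1 window is chr6:73521013-73521042 on the minus strand, that of EEF1B2 chr2:206159885-206159914 on the plus strand and that of EEF2 chr19:3985444-3985473 on the minus strand. TPT1 lies at chr13:45341164-45341193 and NACA at chr12:56725280-56725309, both on the minus strand, BTF3 at chr5:73498432-73498461 on the plus strand and EEF1G at chr11:62573872-62573901 on the minus strand. All 7 windows span the first bases of the annotated transcript (exon 1) and the end of the promoter in front of it.

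A run of at least 5 pyrimidines that opens with C at the annotated start base was found for 6 of the 7 genes with a window. The run was 16 bases long in EEF1B2, 7 bases in EEF1A1, EEF2 and TPT1 and 6 bases in NACA and BTF3. EEF1B2 has another annotated start without such a run. The EEF1G window opens with A, and no run of this kind begins within 5 bases of its annotated start. The search was made on the strand of the gene only. Such a run opens an annotated start in 5.14% of the 27305 genes with an entry. The share was 74.2% for the 62 cytosolic ribosomal protein genes that matched (46 genes), and 5 of the 7 other TOP genes that matched have one. A match describes the annotated letters and is not a mapped start in these cells.

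All 10 genes were detected at 1 FPKM or more in all 20 libraries. Most were higher in the numbered than in the unnumbered splits: EEF2 by 6.50 times in the ratio of means, TPT1 and EEF1D by 2.54 and 2.52 times, BTF3, EEF1A1, EEF1G and EEF1B2 by 1.99, 1.96, 1.91 and 1.85 times. PABPC1, which coats poly(A) tails, went the other way and was 1.80 times higher in the unnumbered splits. EIF3E, a subunit of the initiation factor eIF3, had means of 922.7 ± 505.0 and 846.3 ± 374.8 FPKM (SD, n = 10 each). FPKM is relative to the mapped fragments of its library, so it does not give the amount of an mRNA per cell.

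Differences were tested with limma on log2(FPKM + 1) over all 10943 rows at a mean of 1 FPKM or more, p-values being adjusted by Benjamini and Hochberg's method and called below 0.05, a scale on which changes of low genes are understated. Of the 9 genes of the set that could be tested, 6 were called higher in the numbered splits, where 4.05% of all tested rows were. PABPC1 was called in the opposite direction, as were 1.41% of tested rows. The called share was 5.46% over all rows in both directions, but 68.5% over the 168 rows at 1000 FPKM or more in both sets, 96 of them with higher numbered and 19 with higher unnumbered values. EEF1A1, EEF1G, NACA and PABPC1 had a mean of 1000 FPKM or more in both sets, EEF1A1 not being among the tested genes. EEF1B2, TPT1 and BTF3 reached that level in the numbered splits only, and EIF3E, EEF1D and EEF2 in neither set. The median log2 difference was 0.91 over the 9 tested genes, 0.75 over those 168 abundant rows, 1.08 over 77 cytosolic ribosomal protein genes and 0.36 over all tested rows. The plot of differences sets the 10 genes against the last 3 of these medians.

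**Figure D1:**
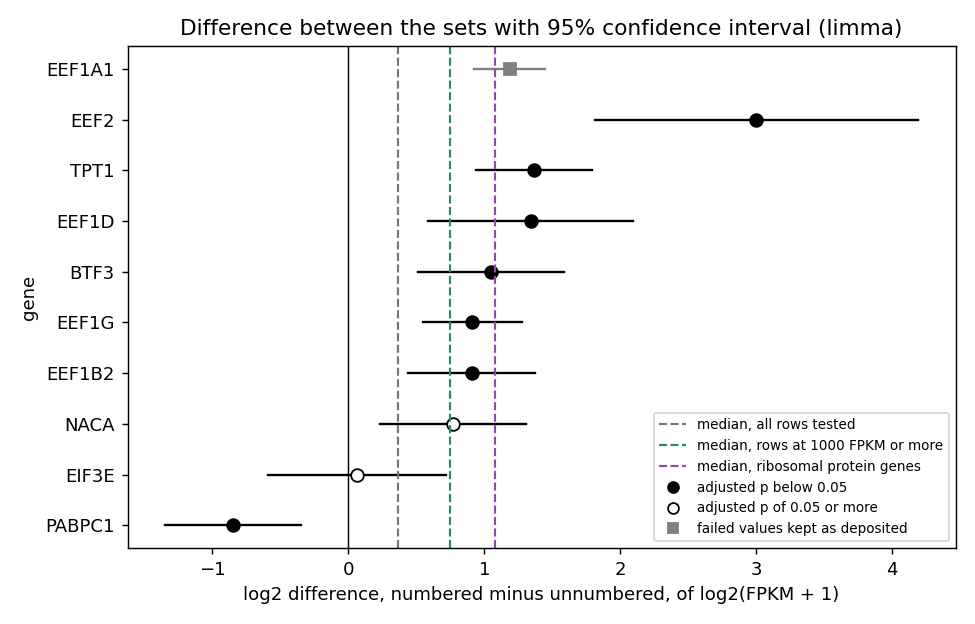
Difference in mean log2(FPKM + 1) between the numbered and the unnumbered splits (horizontal axis, log2) for each gene (vertical axis), with limma's 95% confidence interval as a line. Filled circles are genes with an adjusted p below 0.05, open circles the others, and the grey square is EEF1A1 with its failed values kept; dashed lines are medians over all tested rows (0.36), rows at 1000 FPKM or more (0.75) and ribosomal protein genes (1.08). EEF2 lies farthest to the right at 3.0 and PABPC1 is the gene left of 0 at -0.85.

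EEF1A1 (ENSG00000156508.13, chromosome 6, 74225473 to 74233520 in the coordinates of the files) encodes eEF1A, the GTPase that carries aminoacyl-tRNA to the ribosome. It was the most abundant of the 10 genes in both sets. The status field of the files marks its value as failed in numbered splits 1, 2, 3, 4 and 10 and in unnumbered split 250, and those values are kept apart. The numbered values that did not fail were 6866 FPKM in split 5, 7287 in split 6, 4391 in split 7, 5233 in split 8 and 4424 in split 9. In the unnumbered splits the lowest was 1823, the median 2918 and the highest 3428 FPKM. Every valid numbered value lay above every valid unnumbered one. The same held for 1.72% of the 10943 tested rows, EEF1A1 not being among them. That share was not worked out for abundant rows alone. The means were 5640 ± 1362 (SD, n = 5) and 2876 ± 490.0 FPKM (SD, n = 9). With only 5 valid numbered values EEF1A1 fell short of the minimum of 6 for the limma fit. An exact 2-sided permutation test of the log2 values, added after the data were seen, gave a difference of 0.96 and p = 0.000999, the smallest that 5 against 9 values allow. The failed values were deposited as 6961 to 8358 FPKM in the numbered set and as 2738 FPKM in split 250, each with a lower bound of 0. With these kept, limma gave a log2 difference of 1.19 (SE 0.13, adjusted p = 5.05e-07), in a fit that called 4.07% of rows higher in the numbered splits.

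The rows of EEF1A1 pseudogenes, processed copies scattered over the genome, took up values almost in proportion to the parent gene. EEF1A1P5 stood at 3781 ± 786.4 FPKM in the numbered and 1703 ± 276.5 FPKM in the unnumbered splits (SD, n = 10 each). That was 55.8% to 63.6% of the EEF1A1 value in every one of the 20 libraries, with a median of 58.2%. EEF1A1P6 held 45.7% to 58.9%, with a median of 48.5%, and EEF1A1P11 only 2.43% to 3.84%. A copy that only the name table identifies as one, CTD-2165H16.1 (EEF1A1P13), held 5.77% to 7.34%. Reads that match the parent and a near-identical copy equally well cannot be assigned to either, so the level of EEF1A1 itself is uncertain. EEF1A1 was also summed with its 10 pseudogene rows at 1 FPKM or more. Of these rows 2 were known as such only from the name table and were added after their values were seen. The sum was 14502 ± 3013 FPKM over numbered and 6415 ± 1059.6 FPKM over unnumbered splits (SD, n = 10 each, failed values as deposited). The sets did not overlap in this sum, and among single tested rows 1.72% had all numbered values on top. EEF1B2P3 held 21.1% to 31.9% of EEF1B2, and AC093106.7 (EEF1B2P6 in the name table) 9.77% to 25.3%, with a median of 15.1%. No pseudogene row of EEF1D, EEF1G, EEF2, NACA or EIF3E reached 1 FPKM on average, and those of TPT1, PABPC1 and BTF3 that did held at most 2.19% of the parent gene in all libraries.

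**Figure D2:**
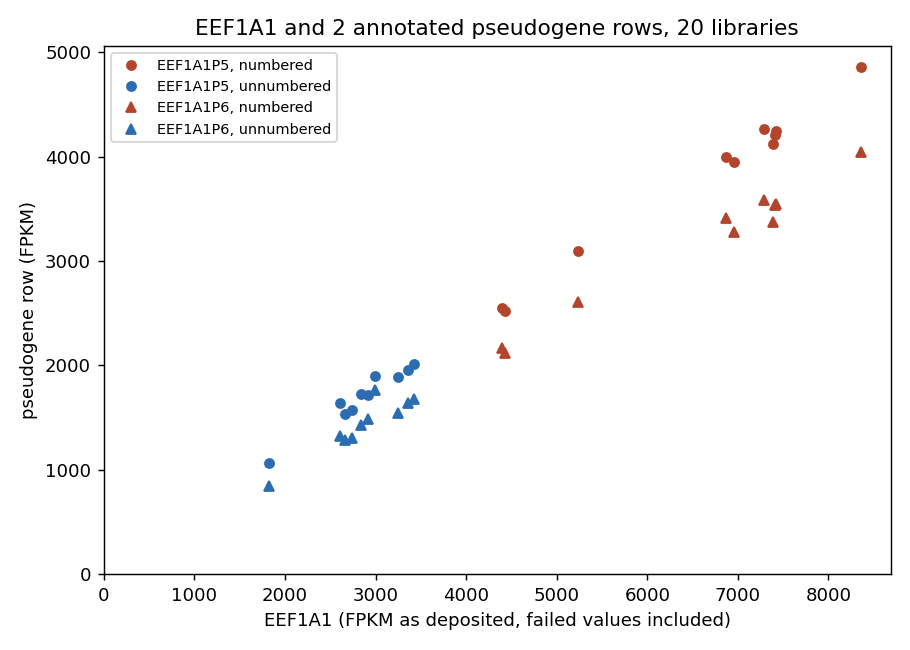
FPKM of the pseudogene rows EEF1A1P5 (circles) and EEF1A1P6 (triangles) on the vertical axis against EEF1A1 as deposited, failed values included, on the horizontal axis, 1 point per library and row. Red points are numbered and blue points unnumbered splits; both rows follow EEF1A1 closely across the 20 libraries, EEF1A1P5 at 55.8% to 63.6% and EEF1A1P6 at 45.7% to 58.9% of it.

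The eEF1B complex recharges eEF1A with GTP: EEF1B2 and EEF1D encode its nucleotide exchange subunits and EEF1G the subunit that holds it together. EEF1G (ENSG00000254772.5, chromosome 11, 62327073 to 62342401) was the most abundant of them. Its lowest, median and highest values were 1249, 2227 and 2761 FPKM in the numbered and 693.9, 1081 and 1489.8 FPKM in the unnumbered splits. All 10 numbered values exceeded the unnumbered median, while the ranges overlapped. The log2 difference was 0.91 (SE 0.18, adjusted p = 0.00122, limma), and the call was lost only when the trend with transcript length was removed (0.57, adjusted p = 0.133).

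EEF1B2 (ENSG00000114942.9, chromosome 2, 207024309 to 207027652) had a lowest value of 711.3, a median of 1387 and a highest value of 2085 FPKM in the numbered splits. In the 9 unnumbered splits with a valid value these were 347.7, 738.1 and 1078 FPKM, and split 249 carried a failed value of 761.5 FPKM. The value of 347.7 FPKM was that of split 247, the shallowest library. Only numbered split 3 lay below the unnumbered median. On the log2 scale the difference came to 0.91 (SE 0.23, adjusted p = 0.0145, limma). It did not pass after scaling to TPM (0.65, adjusted p = 0.101), with median-ratio size factors (0.66, 0.113), with the length trend removed (0.38, 0.449), without numbered splits 5 to 8 (0.75, 0.159) or with these 4 splits as a covariate (0.75, 0.125). The small nucleolar RNA genes SNORD51 and SNORA41 lie within the EEF1B2 locus, and no source used here says whether counting used strand.

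EEF1D (ENSG00000104529.13, chromosome 8) was the least abundant subunit. Lowest, median and highest values were 165.4, 556.7 and 821.4 FPKM in the numbered and 97.9, 180.3 and 389.9 FPKM in the unnumbered splits. The lowest numbered value was that of split 9, and the ranges overlapped. The log2 difference was 1.34 (SE 0.37, adjusted p = 0.0268, limma). This call was narrow. Leaving out any 1 of numbered splits 1, 3, 4 and 5 or of unnumbered splits 232 and 248 moved the adjusted p to between 0.0509 and 0.0563, and 6 of 14 other settings lost it (adjusted p 0.0660 to 0.221).

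EEF2 (ENSG00000167658.10, chromosome 19, 3976055 to 3985461) encodes the GTPase that moves the ribosome on by 1 codon after each peptide bond. It was the least abundant of the 10 genes in both sets and differed most between them. Across numbered splits it ran from 89.3 FPKM in split 8 to 336.6 FPKM in split 6, with a median of 141.3 FPKM. Across unnumbered splits it ran from 4.28 FPKM in split 250 to 67.0 FPKM in split 233, with a median of 18.2 FPKM. The means were 164.6 ± 79.1 and 25.3 ± 21.1 FPKM (SD, n = 10 each). The sets did not overlap, as was so with numbered values on top for 1.72% of tested rows. On the log2 scale the difference came to 3.0 (SE 0.58, adjusted p = 0.00111, limma), with a 95% confidence interval of 1.81 to 4.19. It remained called under all 14 other settings (2.42 to 3.10) and without any single library. EEF2 has, after EEF1A1, the longest transcripts of the 10 genes, with a median annotated length of 3164 bases (GENCODE 29) against 3447 bases in EEF1A1, 2366 bases in PABPC1 and 880.0 to 1523 bases in the 7 others. With the trend on length removed the difference was 2.87.

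The ratio of EEF1B2, an exchange subunit gene, to EEF2 differed between the sets. This result is not separate from the log2 differences of the single genes, 0.91 for EEF1B2 and 3.0 for EEF2. The ratio of EEF1B2 to EEF2 within a library had a median of 9.41 (4.13 to 16.8) in the numbered and of 49.5 (7.14 to 139.9) in the unnumbered splits. The difference in the mean log2 ratio was -2.07 (exact permutation test, 2-sided, adjusted p = 0.00624 over 4 ratios; -2.31 to -1.49 in the other settings). Ratios between subunits of eEF1B did not pass: EEF1G to EEF1B2 had medians of 1.38 and 1.45 (adjusted p = 0.940, exact permutation test) and EEF1D to EEF1B2 medians of 0.337 and 0.248 (adjusted p = 0.475, exact permutation test).

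NACA and BTF3 encode the alpha and beta chain of the nascent polypeptide-associated complex, which sits at the ribosomal exit tunnel and covers emerging chains. NACA (ENSG00000196531.6, chromosome 12, 57106212 to 57125412) had lowest, median and highest values of 1762, 2871 and 3710 FPKM in the numbered splits. In the unnumbered splits they were 621.8, 1833 and 3099.8 FPKM, a range that reached from far below to within the numbered values. The value of 621.8 FPKM was that of split 247, the shallowest library. NACA was not called (log2 difference 0.77, SE 0.26, adjusted p = 0.0913, limma), and passed only without unnumbered split 253, its highest unnumbered value (0.88, adjusted p = 0.0403). BTF3 (ENSG00000145741.10, chromosome 5, 72794233 to 72801460) had values of 643.6, 1537 and 1854 FPKM in the numbered and 249.1, 801.7 and 968.9 FPKM in the unnumbered splits. Numbered split 9 alone lay within the unnumbered range.

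BTF3 was called higher in the numbered splits, with a log2 difference of 1.05 (SE 0.26, adjusted p = 0.0134, limma). It missed the threshold with median-ratio size factors (0.80, adjusted p = 0.0749), with the length trend removed (0.57, 0.274) and without numbered splits 5 to 8 (1.1, 0.0671). The ratio of NACA to BTF3, partners in the complex, had a median of 1.85 in the numbered and 2.14 in the unnumbered splits. It ranged from 1.49 to 3.42 and from 1.39 to 8.63, with the highest value in split 250, where BTF3 was at its lowest. The difference did not pass (log2 -0.28, permutation test with 100000 resamples, adjusted p = 0.503).

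TPT1 (ENSG00000133112.12, chromosome 13, 45911008 to 45915505) encodes the translationally controlled tumour protein, an abundant cytosolic protein whose mRNA was an early example of translational control. Its values were 1440.3, 2507 and 3390.4 FPKM at the lowest, median and highest in the numbered splits. The unnumbered splits gave 487.5, 911.1 and 1482 FPKM, and only numbered split 7 fell below the highest of them. The log2 difference was 1.36 (SE 0.21, adjusted p = 7.28e-05, limma). TPT1 and EEF2 were the only genes of the 9 called under all 14 other settings and in all 20 leave-outs of a single library. TPT1 was least with the length trend removed (0.88, adjusted p = 0.0349).

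PABPC1 (ENSG00000070756.9, chromosome 8) encodes the main cytoplasmic poly(A)-binding protein, which joins the tail of an mRNA to initiation factors at its cap. Lowest, median and highest values were 566.7, 1010.0 and 2224 FPKM in the numbered and 1019.8, 1959 and 3701 FPKM in the unnumbered splits. All 10 unnumbered values exceeded the numbered median, and the ranges overlapped widely. The means were 1159 ± 478.9 and 2089 ± 818.5 FPKM (SD, n = 10 each). On the log2 scale the difference came to -0.85 (SE 0.24, adjusted p = 0.0366, limma), and its sign was the same in all settings. The call rested on a small margin. It was lost on leaving out any 1 of 13 libraries, namely numbered splits 1, 2, 3, 4, 7, 8 and 9 and unnumbered splits 247, 248, 249, 250, 251 and 253 (adjusted p 0.0506 to 0.0711), with no filter on low rows (0.0982) and without splits 9, 247 and 253 (-0.63, 0.148). Scaling to TPM, by contrast, gave -1.11 (adjusted p = 0.00145).

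EIF3E (ENSG00000104408.5, chromosome 8) encodes subunit e of eIF3, the large factor that brings the small ribosomal subunit to the mRNA. It ran from 377.6 to 1719.9 FPKM over the numbered splits, with a median of 723.5 FPKM, and from 370.9 to 1507 FPKM in the unnumbered splits, with a median of 790.8 FPKM. The ranges coincided almost fully. The log2 difference was 0.06 (adjusted p = 0.928, limma), with a 95% confidence interval of -0.59 to 0.72. Its sign turned under 4 of 14 other settings.

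**Figure D3:**
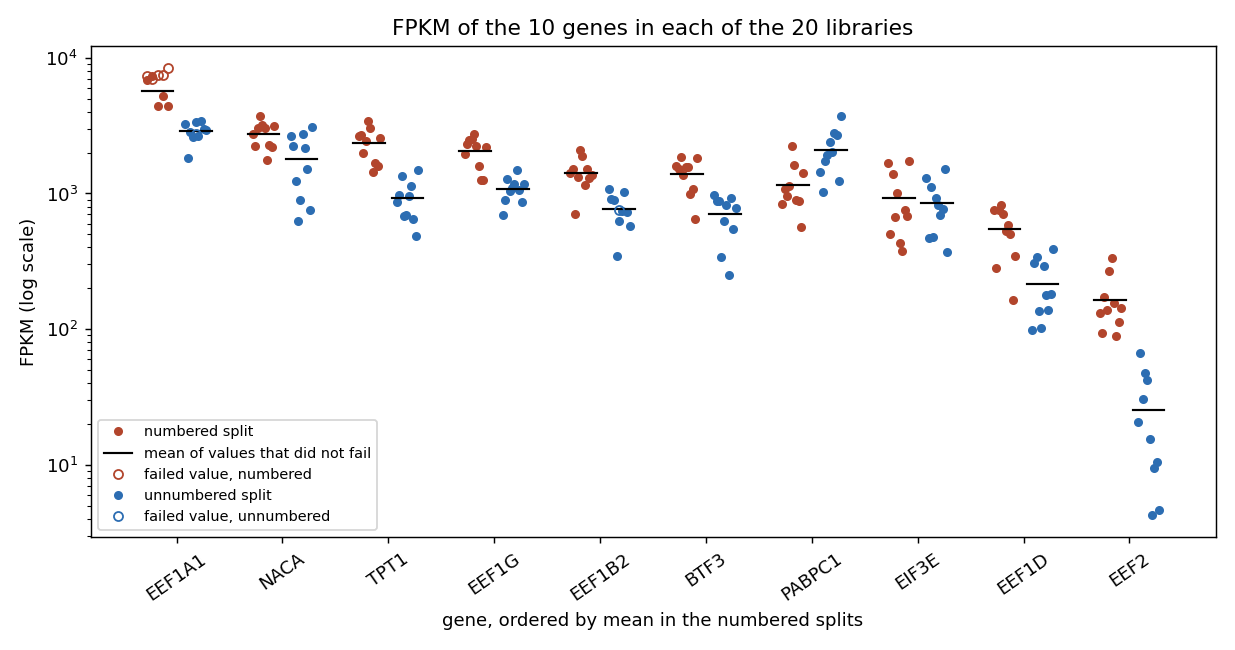
FPKM (vertical axis, log scale) of the 10 genes in each numbered (red) and unnumbered (blue) split, with bars at the mean of valid values and open circles for values with status failed. EEF1A1 is highest and EEF2 lowest in both sets. The sets stand apart for EEF1A1 and for EEF2 (89.3 to 336.6 against 4.28 to 67.0 FPKM) and overlap for all the other genes, almost fully for EIF3E.

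FPKM is per length, so the values of different genes were ranked. This order is one of FPKM values. The trend with transcript length and reads shared with pseudogene rows were not corrected for in it. In the numbered splits the order of mean FPKM was EEF1A1, NACA, TPT1, EEF1G, EEF1B2, BTF3, PABPC1, EIF3E, EEF1D and EEF2. In the unnumbered splits it was EEF1A1, PABPC1, NACA, EEF1G, TPT1, EIF3E, EEF1B2, BTF3, EEF1D and EEF2. Neighbours were compared within libraries by exact 2-sided sign-flip permutation tests over 18 pairs, and 5 differed. EEF1G exceeded EEF1B2 in the numbered splits (in 8 of 10 libraries, adjusted p = 0.0422, exact permutation) and EEF1A1 exceeded PABPC1 in the unnumbered splits (8 of 9, adjusted p = 0.0352, exact permutation). BTF3 exceeded EEF1D in all 10 unnumbered splits, and EEF1D exceeded EEF2 in all 10 libraries of each set (adjusted p = 0.0117 each, exact permutation).

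The other 13 pairs did not pass the test. For EEF1A1 and NACA in the numbered splits only 5 libraries had both values, and EEF1A1 was higher in all 5. The smallest p that 5 pairs allow is 0.0625. PABPC1 did not pass against either neighbour in the numbered set, nor against NACA in the unnumbered set.

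The spread between splits is given as the coefficient of variation (CV, SD over mean), which was 0.170 to 0.833 over the genes and sets. The CV of EEF1A1 was 0.241 for numbered and 0.170 for unnumbered splits. Low CVs were also seen for EEF1G (0.258 and 0.210), EEF1B2 (0.264 and 0.301) and TPT1 (0.277 and 0.342). NACA was the steadiest of all in the numbered splits at 0.217 but reached 0.504 in the unnumbered ones. At the other end stood EIF3E (0.547 and 0.443) and EEF2 (0.480 and 0.833).

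For comparison, tested rows at 1000 FPKM or more had a median CV of 0.234 over numbered (236 rows) and 0.267 over unnumbered splits (209 rows). Between 100 and 1000 FPKM it was 0.628 (1248 rows) and 0.745 (1312 rows). EEF1A1, EEF1G, EEF1B2, TPT1 and BTF3 lay close to the first of these values in the numbered splits, whereas PABPC1 at 0.413 lay above the upper quartile of 0.298. In the unnumbered splits NACA (0.504) and PABPC1 (0.392) lay above the upper quartile of 0.340 for rows at 1000 FPKM or more, while EEF1A1 (0.170) and EEF1G (0.210) lay below the median. EEF1D (0.408 and 0.489), with 545.4 and 216.7 FPKM on average, was below the medians of its level class in both sets. The same held for EIF3E (0.547 and 0.443), with 922.7 and 846.3 FPKM. No test was made of these spreads.

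**Figure D4:**
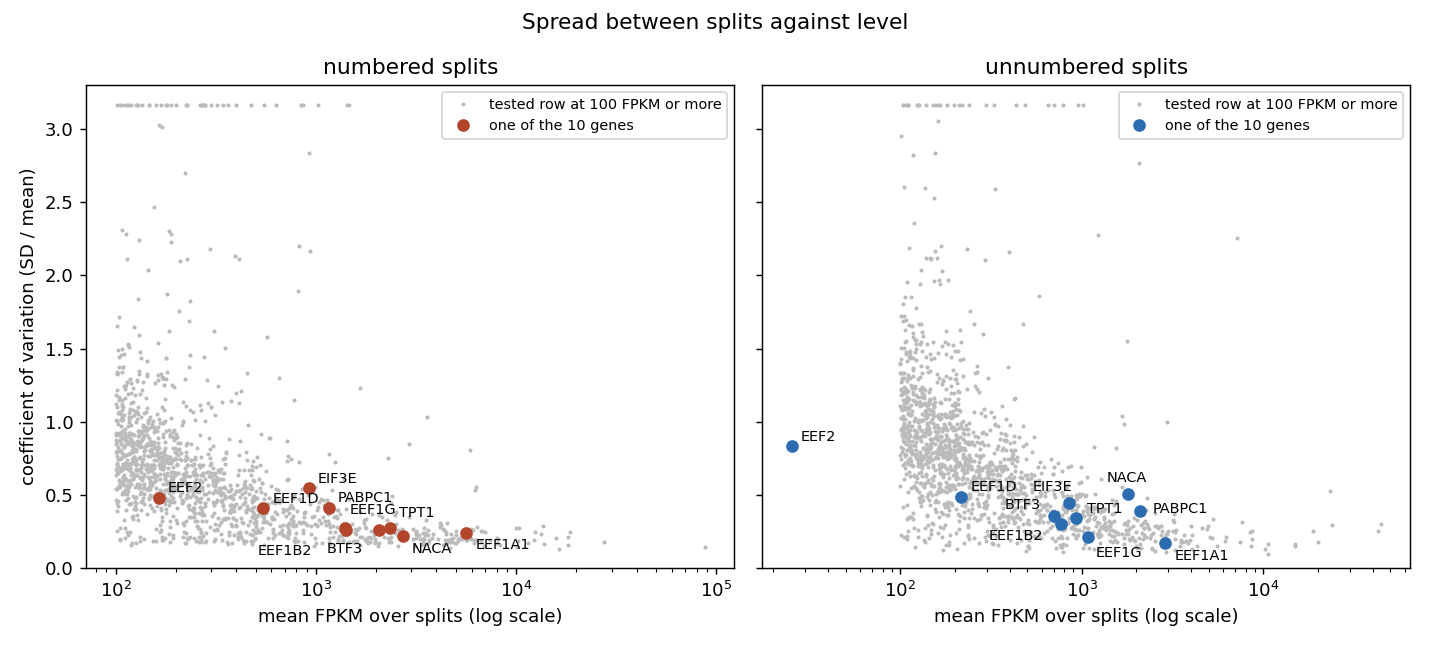
Coefficient of variation between splits (vertical axis, SD over mean) against mean FPKM (horizontal axis, log scale) in the numbered (left) and unnumbered (right) splits. Grey dots are tested rows at 100 FPKM or more and coloured points the 10 genes; EEF1A1 lies at the lower right (0.241 and 0.170), and EEF2 in the unnumbered splits is at 25.3 FPKM with a CV of 0.833.

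In some splits most of the genes lay on the same side of their set mean. In numbered split 5 all 10 genes lay above the mean of their set and in split 6 it was 9 of 10, while in split 9 all 10 lay below it and in splits 7 and 8 it was 8 of 10 each. Splits 7, 8 and 9 also had the lowest summed FPKM of the set over all rows, 1.13e+06, 1.24e+06 and 1.19e+06 against 1.52e+06 to 1.64e+06 in the other 7. They stood apart in the number of rows at 1 FPKM or more as well, with 7738, 6667 and 3815 against 4591 to 5606. The part of these library-wide differences in the counts of genes above or below the mean was not tested. Such counts were not worked out over all rows or over abundant rows, so they are not particular to these genes. In the unnumbered set split 247, the shallowest library, had 9 of 10 genes below the mean and split 246 had 8 of 10 above it. Splits 5 to 8 carry laboratory experiment numbers apart from those of the other numbered splits, but they hold both high and low libraries. Between splits 5 to 8 and the other 6 none of the 9 genes tested passed (exact permutation tests, unadjusted p 0.143 or more, adjusted p 0.571 to 0.943). EEF1A1, with 4 and 1 valid values, could not be tested in this way. Without splits 5 to 8 the set difference remained called for EEF2 (2.79, adjusted p = 0.0357, limma), TPT1 (1.38, 0.000800), EEF1G (0.97, 0.00492) and PABPC1 (-1.02, 0.0288), 4 genes in place of 7. In the unnumbered set splits 232 and 233 also have experiment numbers apart from the rest, and these 2 are too few for a value of their own.

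**Figure D5:**
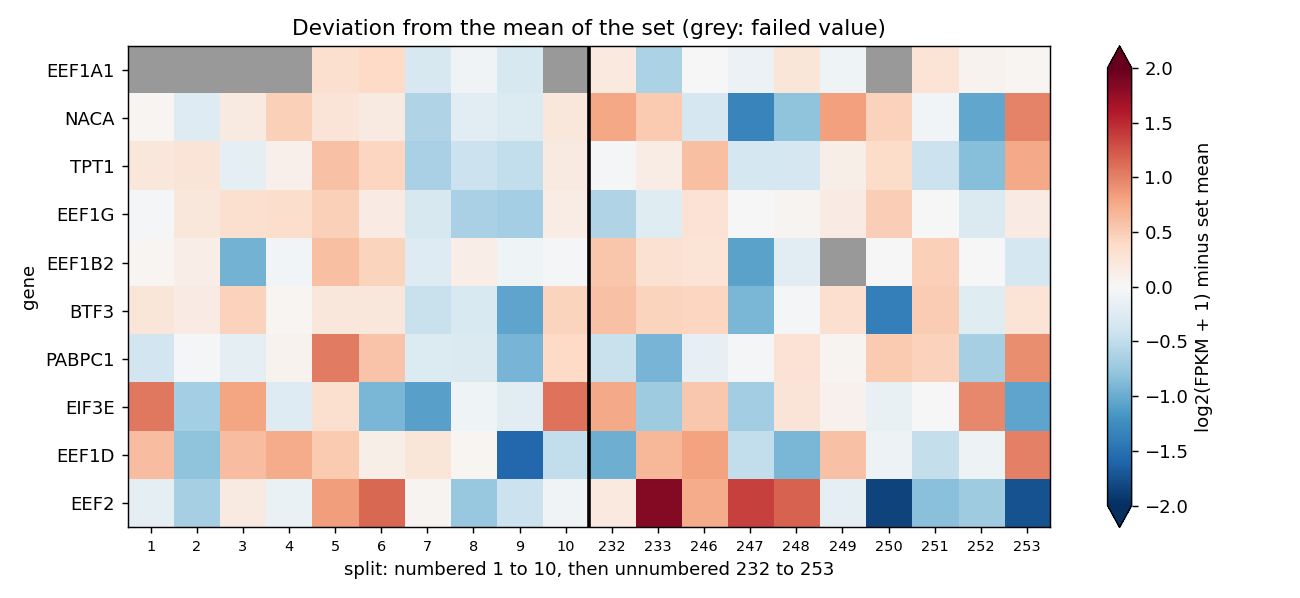
Deviation of log2(FPKM + 1) from the mean of the set (colour, log2 units, red above and blue below, deeper values clipped at 2) for the 10 genes (rows) in the 20 splits (columns, the black line divides the sets); grey cells are failed values. Split 5 is above the mean for all 10 genes and split 9 below it for all 10, and EEF2 varies most, in the unnumbered splits.

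Across the 20 libraries, after centring each gene within its set, the highest correlations between the genes were those of EEF1A1 with PABPC1 (Pearson r 0.70, 14 libraries with both values) and of EEF1G with PABPC1 (0.70, 20 libraries). TPT1 and NACA followed at 0.64. Subunits of 1 complex were not the most alike: NACA and BTF3 had an r of 0.43, and EEF1B2 and EEF1G one of -0.09. EEF2 was lowest with NACA at -0.26 and had a median of -0.02 with the other genes. The median over the 45 pairs was 0.23, beside 0.29 over all pairs of 166 rows at 1000 FPKM or more. All points share the scaling and the depth of their library, and these values are a description.

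The rows whose profile over the 20 libraries was most like the mean of the tested genes, outside ribosomal protein genes and at 100 FPKM or more in both sets, were RPLP0P6 (r 0.83), AC079250.1 (0.81), CTB-63M22.1 (0.79), USMG5 (0.77) and RPL18AP3 (0.76). RPLP0P6, CTB-63M22.1 (RPLP0P9 in the name table) and RPL18AP3 are annotated copies of ribosomal protein genes, and USMG5 encodes a small subunit of mitochondrial ATP synthase. How far the copies carry reads of their parent genes was not tested. The median r over the 969 candidate rows was 0.18. Over the 77 ribosomal protein genes, which were not candidates, it was 0.40, with a highest r of 0.82.

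Ribosomal protein genes, the largest group of TOP mRNAs, had 68 of 77 members called higher in the numbered splits and none called lower with limma, also at an unadjusted p below 0.05 (0 genes), with a median log2 difference of 1.08. RPL14 and RPS18 were the most abundant, at 18172 ± 3822 and 13798 ± 2289 FPKM in the numbered against 8494 ± 2087 and 7429 ± 1326 FPKM in the unnumbered splits (SD, n = 10 each). Of 10 further genes with known TOP mRNAs, 4 were called with higher numbered values and 0 with lower ones by limma, 1 being lower at an unadjusted p below 0.05 (median 0.98). Among these were FAU (log2 difference 1.27, adjusted p = 0.000137, limma), which encodes a ribosomal protein fused to a ubiquitin-like one, GAS5 (3.17, 0.0211), a host of small nucleolar RNAs, and GNB2L1 (0.62, 0.0329), the ribosomal scaffold RACK1. Without numbered splits 5 to 8 the adjusted p of GAS5 was 0.126 and with these splits as a covariate 0.0801. With no filter on low rows it was 0.0933 and with the length trend removed 0.0695. FAU fell short only with the length trend removed (0.71, 0.0538). The call of GNB2L1 was lost without any 1 of numbered splits 3, 5, 6 and 10 or unnumbered splits 233, 246, 248 and 253 (adjusted p up to 0.0694). It was also lost in 5 of 12 other settings, among them TPM scaling (0.37, 0.186) and removal of the length trend (0.12, 0.759). HNRNPA1, an RNA-binding protein gene of this list, was not called (-0.46, adjusted p = 0.231). It was called higher in the unnumbered splits after scaling to TPM (-0.72, 0.00933), with median-ratio size factors (-0.70, 0.0344) and with the length trend removed (-0.75, 0.0369).

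Other factors of elongation and termination gave no call in 8 tested genes (median -0.71), although 1 of them, EEF1E1, which encodes a scaffold of the aminoacyl-tRNA synthetase complex, had an unadjusted p below 0.05 (log2 difference -1.99, adjusted p = 0.161, limma). Among the 12 other subunits of eIF3 none was called higher in the numbered splits with limma, and 3 were so at an unadjusted p below 0.05. EIF3I was called higher in the unnumbered ones (-1.36, adjusted p = 0.0338, limma), at 597.4 ± 336.5 against 1468 ± 689.0 FPKM (SD, n = 10 each). Its call was lost without any 1 of numbered splits 1, 2, 5 and 8 or unnumbered splits 232, 246, 247, 249, 251 and 252 (adjusted p 0.0523 to 0.0686), and in 5 of 14 other settings, the most without numbered splits 5 to 8 (adjusted p 0.156). EIF3M, the most abundant other subunit, was not called (0.95, adjusted p = 0.599).

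Of 23 other initiation factors 2 were called with higher numbered and 2 with higher unnumbered values (median 0.06). EIF2S3, the gamma subunit of the factor that brings the initiator tRNA, was lower in the numbered splits at 388.3 ± 88.0 against 1024 ± 368.2 FPKM (SD, n = 10 each; log2 difference -1.35, adjusted p = 0.000328, limma). That call held in all 14 other settings and all 20 leave-outs. The other 3 were EIF1, which helps to find the start codon (0.56, adjusted p = 0.0435, limma), EIF2B2 (4.40, 0.0152) and EIF4G2 (-1.56, 0.0309). EIF1 lost its call without any 1 of numbered splits 1 to 6 and 10 or unnumbered splits 233, 246, 247, 248 and 252 (adjusted p up to 0.0875) and in 6 other settings (up to 0.636). EIF4G2 lost it without any 1 of numbered splits 3, 5 and 8 or unnumbered splits 233, 246, 250 and 251 (up to 0.0589). It was also lost for EIF4G2 with no filter on low rows (0.0969), without numbered splits 5 to 8 (0.164) and with these splits as a covariate (0.220). EIF2B2 lost its call without numbered splits 5 to 8 together (0.155) and with them as a covariate (0.112). EIF2B2 had a median of 56.7 FPKM in the numbered and of 0 in the unnumbered splits, where 1 library at 140.3 FPKM made up nearly the whole mean, and its log2 difference moved from 2.20 to 6.78 with the pseudocount. None of the 7 tested genes around the poly(A)-binding protein, PABPC4 and PAIP2 among them, was called (median -1.24), with 1 at an unadjusted p below 0.05, higher in the unnumbered splits. Beside NACA and BTF3, NAA15, an N-terminal acetyltransferase subunit at the ribosome, was the 1 called of 5 tested (13.6 ± 14.6 against 114.3 ± 39.9 FPKM, SD, n = 10 each; log2 difference -3.99, adjusted p = 0.00122, limma). Among 16 tested regulators of TOP translation 1, EIF4EBP1, was called (3.67, adjusted p = 0.0474, limma), and this call was lost on leaving out any 1 library except numbered splits 7, 9 and 10 and unnumbered splits 232 and 247 (adjusted p up to 0.0896) and in 8 of 14 other settings (up to 0.131). Its unnumbered median was 0 FPKM, and the difference ran from 1.84 to 5.82 with the pseudocount. LARP1, the repressor of TOP mRNAs, was at 27.7 ± 26.5 and 23.3 ± 14.2 FPKM (SD, n = 10 each; adjusted p = 0.965, limma) and was looked up after the values were known.

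Together the 10 genes held 1.08% to 1.48% of the summed FPKM of a library in the numbered splits (median 1.31%) and 0.681% to 1.17% in the unnumbered splits (median 0.966%), failed values included. Without EEF1A1 and EEF1B2, the genes with failed values, the 8 others held 0.605% to 0.929% (median 0.778%) and 0.431% to 0.887% (median 0.635%). The shares overlapped between the sets in both cases.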

How the data were processed

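The deposited files hold FPKM values per gene row, which the authors made with Cufflinks 2.0.2 after TopHat 1.4.1, the tools that the submitters' processing notes name; each value has a status and confidence bounds per the file headers. Genome build and use of strand: not given in the sources used here. Multi-mapped reads, status and relative scaling can move these values. The 10 genes, the lists and the tests were chosen with earlier results of these data known. Values with status failed were set to missing. Rows with at least 6 valid values in each set and a mean of at least 1 FPKM were tested with limma 3.58.1 (R 4.3.3) with a variance trend, on log2(FPKM + 1). P-values were adjusted over all rows after Benjamini and Hochberg, with a threshold of 0.05. The fit was tested on simulated data. Ratios and order of levels were tested by permutation (scipy 1.17.1, numpy 2.4.6, pandas 2.3.3, Python 3.11.15), exact within libraries and where a set had fewer than 10 values, and with 100000 resamples where both sets had 10. Depth came from 10 mitochondrial genes whose bounds follow the square root of the fragment number. Named genes were the 10 genes, the 2 most abundant and up to 3 called with the smallest p of each list, the 3 most abundant rows per gene that the files name as its pseudogenes and the 5 rows most alike in profile. Alternatives were pseudocounts, filters, scaling, length trend, failed and low-data rows, and left-out libraries. The other 42 samples were not analysed here. Start windows came from RefSeq (GRCh38.p14). No library pair held identical values. One called gene of the further TOP genes is not reported here by name.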

Additional observations from a re-analysis of the deposited data

How the results depend on the processing

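Over 14 other settings the number of the 10 genes called, 7 in the main fit, ran from 3 to 8. It changed to 4 with median-ratio size factors, to 3 with the length trend removed and to 4 without numbered splits 5 to 8. When a single library was left out it was 5 to 7. EEF1B2 and EEF1D also lost their calls after TPM scaling (limma, adjusted p 0.101 and 0.0679). The same held with splits 5 to 8 as a covariate (0.125 and 0.150). Over all rows, 238 were higher in the unnumbered splits after TPM scaling, and with the length trend removed 228 were higher in the numbered and 245 in the unnumbered splits. Without numbered splits 5 to 8 the counts were 391 in all and 283 higher in the numbered splits, with fewer samples. The main counts were 597, 443 and 154. Calls higher in the numbered splits were 74.2% of all calls, but 60.9% after TPM scaling, 61.9% with size factors and 48.2% once the length trend was taken out. The median difference over all rows moved from 0.36 to 0.22, 0.25 and 0.012 in these 3. Relative to that, EEF2, TPT1 and PABPC1 kept their direction and call.

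EIF3E, which was not called, turned to -0.20 with TPM, -0.18 with size factors, -0.30 with the length trend removed and -0.13 without splits 9, 247 and 253, and was -0.058 to 0.18 in leave-outs. In leave-outs the log2 ratio of EEF1G to EEF1B2 was -0.12 to 0.16 and CNBP, a regulator gene not called at 0.36, was -0.28 to 0.55. Neighbouring pairs that differed were 3 in place of 5 without splits 5 to 8 and without splits 247 and 252, and 3 to 6 in leave-outs. The cause of these changes was not tested. Keeping failed values, leaving out low-data rows, leaving out splits 9, 247 and 253 and the test of EEF1A1 were chosen after seeing the data. Split 247, at 0.128 megafragments, limits the precision of its values, and not of low ones only. In the unnumbered set the half-width of the confidence interval reached 162.0% of the value for EEF1D and 109.5% for EIF3E. It reached 53.4% for NACA and 65.6% for BTF3. The medians were 5.72%, 4.82%, 1.71% and 2.14%, in this order. No paired analysis was possible because the sets share no replicate numbers.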
